A study of Homo sapiens with 8 samples.

Results

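A set of 10 genes of ADP-ribosylation was followed through PRMT9 knockdown (KD) in 2 acute myeloid leukemia (AML) cell lines: PARP1, PARP2, PARP3, PARP8, PARP9, PARP10, PARP12, PARP14, ZC3HAV1 (also called PARP13 or ZAP) and DTX3L. They were chosen by gene symbol in the Molm13 count table, and the same Ensembl gene identifiers were read from the THP1 table, giving 10 genes of the 57722 present in both. All 10 passed the filter on low counts in both lines. Of these, 6 were grouped as interferon-linked (PARP9, DTX3L, PARP14, PARP10, PARP12 and ZC3HAV1), 3 as DNA repair genes (PARP1, PARP2 and PARP3), and PARP8 was placed in neither group.

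Bulk polyA RNA-seq had been carried out on Molm13 and THP1, both established AML lines with features of monocytic cells. In each line a control hairpin, shCtrl (labelled WT), was compared with a hairpin against PRMT9, shPRMT9 (labelled PRMT9 knockdown), and all 8 libraries, controls included, were labelled as given Dox induction; Dox is the doxycycline that switches an inducible hairpin on. There were 2 libraries in each of the 4 groups. The labels do not say whether numbers 1 and 2 mark separate cultures or separate hairpins, so the tests measure only the spread between these libraries. PRMT9 is an arginine methyltransferase, and the comparison asks how RNA levels differed once it was depleted. Depletion by a hairpin is partial, and the names of the THP1 libraries carry the letters OCI, used for other leukemia lines, although their other labels give THP1.

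ADP-ribosylation is the transfer of ADP-ribose from NAD onto proteins or nucleic acids by enzymes of the PARP family. PARP1 and PARP2 build chains of ADP-ribose at DNA breaks and so call in repair proteins, while most other family members add single units. A subset of the family is known as interferon-stimulated genes: PARP9 works in a complex with the ubiquitin ligase DTX3L, PARP14 carries macrodomains that bind ADP-ribose, PARP10 and PARP12 are mono-ADP-ribosyltransferases, and ZC3HAV1 is a catalytically inactive member that binds viral RNA and promotes its decay. Interferon reaches such genes through factors that include STAT2 and IRF9 and bind the interferon-stimulated response element (ISRE); the gamma-activated site (GAS) is another interferon response motif.

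A stretch of chromosome 3 holds 3 of the members side by side. PARP9 (ENSG00000138496, chr3:122527924-122564577, minus strand) and DTX3L (ENSG00000163840, chr3:122564238-122575203, plus strand) stand head to head, with annotated starts 339 bases apart, and PARP14 (ENSG00000173193, chr3:122680618-122730840, plus strand) lies downstream. Positions are those of the deposited table, in GRCh38, and are the same in GENCODE 29. The 203 kb that span PARP9 to PARP14 held 5 genes in the table: these 3 members, PARP15 and the pseudogene EIF4BP8. PARP12 (ENSG00000059378, chr7:140023744-140063721) and ZC3HAV1 (ENSG00000105939, chr7:139043520-139109719) are both on the minus strand of chromosome 7.

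RefSeq promoter windows (GRCh38.p14, 250 bases before to 50 after each start) were read for 9 of the 10 members, in 12 windows. No window of PARP10 was read, so whether its promoter holds either motif was not looked at. The ISRE core, GAAANNGAA on either strand, was found in the windows of 4 members, PARP9 (window 2 only), DTX3L, PARP14 and PARP12. Of all 35116 windows 8.11% held it, a share per window and not per member. PARP9 and DTX3L share a single site, chr3:122564332-122564340, which begins 40 bases before the RefSeq start of the PARP9 window that holds it and 6 before the RefSeq start of DTX3L. These RefSeq starts are not the gene ends given above, and from the latter the site lies inside both genes. The sites are printed below because they are the feature that 4 of the interferon-linked members have in common; each stretch is 30 bases, read 5′ to 3′ on the strand of its gene, with the motifs in capitals.
PARP9, chr3:122564322-122564351, minus strand: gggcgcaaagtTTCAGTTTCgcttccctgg
DTX3L, chr3:122564321-122564350, plus strand: tccagggaagcGAAACTGAAactttgcgcc
PARP14, chr3:122680794-122680823, plus strand: gagttTTCCAGGAAacGAAAGCGAAagagt
PARP12, chr7:140062942-140062971, minus strand: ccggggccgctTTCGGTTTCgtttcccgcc

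In PARP14 the first run of capitals is a GAS, TTCNNNGAA, and the other is the ISRE core; the motifs do not overlap. In GENCODE 29 the site shared by PARP9 and DTX3L lies in a UTR exon of DTX3L and an intron of PARP9, and those of PARP14 and PARP12 lie in UTR exons of their own genes. The GAS was found in the windows of 3 members, PARP14, ZC3HAV1 and PARP2, and in 7.66% of all windows, again a share per window. The stretches around the other GAS matches are given for comparison with PARP14, with the motif in capitals.
ZC3HAV1, chr7:139109806-139109835, minus strand: gggtctgctctTTCCGGGAAtgggtggggt
PARP2, chr14:20343470-20343499, plus strand: tttatggtgatTTCCCAGAAcacatagcga

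No ISRE core was found in the windows of ZC3HAV1, PARP1, PARP2, PARP3 or PARP8. For a DNA repair promoter with neither motif, the 100 bases before the PARP1 start are given, all in lower case.
PARP1, chr1:226408094-226408193, minus strand: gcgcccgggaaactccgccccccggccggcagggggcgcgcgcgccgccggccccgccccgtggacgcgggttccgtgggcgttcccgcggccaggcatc

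**Figure D1:**
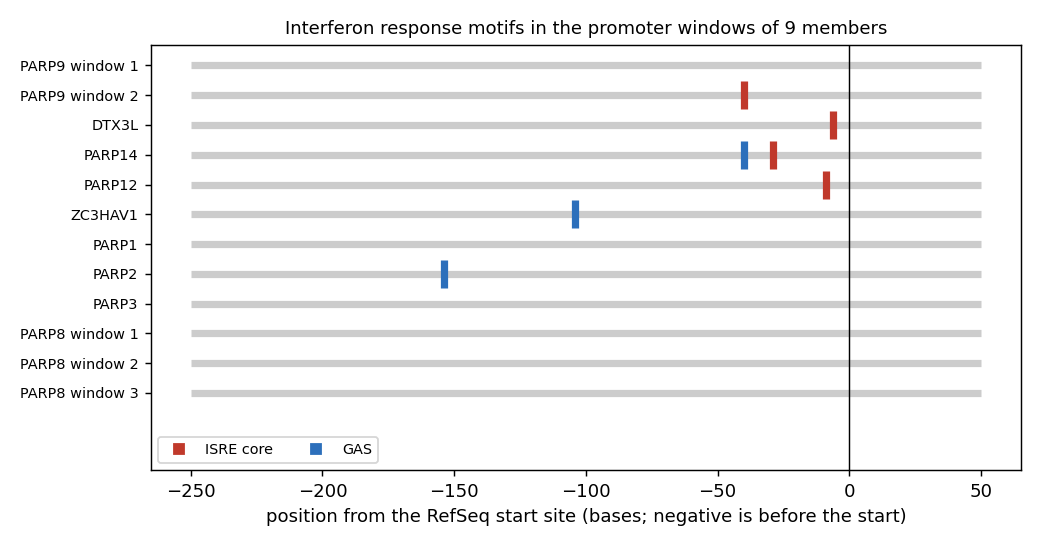
Position of each motif match (coloured ticks, at the first base of the match in the direction of the gene) in the 12 RefSeq promoter windows of 9 members, in bases from the start site. ISRE core matches begin 6 to 40 bases before the start of PARP9 (window 2), DTX3L, PARP14 and PARP12, and the other windows hold none. The DTX3L match runs across the start.

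Library totals ran from 18720950 to 27356870 counts. PRMT9 itself stood at 16.3 and 14.8 CPM (counts scaled to an equal library total) in the Molm13 shCtrl libraries against 2.19 and 2.63 with shPRMT9. In THP1 PRMT9 was at 12.4 and 12.7 against 2.38 and 2.74. The libraries thus followed their hairpin labels, and PRMT9 levels say nothing of the line labels. Of 8 myeloid markers (CD33, LYZ, MPO, CSF1R, ITGAM, CD68, SPI1 and CD14), 7 had at least 20 counts in a Molm13 library and 8 in a THP1 library. Their summed level moved with the hairpin: 899 to 908 CPM in Molm13 shCtrl and 1451 to 1470 with shPRMT9, and 2314 to 2317 in THP1 shCtrl and 3568 to 3723 with shPRMT9, with 6 of 7 tested markers rising and 1 falling in Molm13 and 7 of 8 rising and 1 falling in THP1. Of 5 B cell markers, the sum was 42.3 to 43.0 CPM in Molm13 shCtrl and 39.6 to 40.6 with shPRMT9; in THP1 it went from 4.03 to 4.72 CPM in shCtrl to between 12.4 and 13.98 with shPRMT9, with PAX5 at 64 and 86 counts against 298 and 276 and MS4A1 at 0 to 1. T cell markers summed to at most 0.547 CPM in any library, and CD3D and CD3E had at most 3 counts. The part of these markers in the results below was not tested.

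PRMT9 KD was accompanied by higher RNA of the interferon-linked members in both lines, except PARP12 in Molm13. PARP9 and PARP10 rose past the fold limit given below in both lines, while PARP14, PARP12 and DTX3L did so in THP1 alone. In THP1, 5 of the 6 were differentially expressed genes (DEGs), all higher: PARP9 4.50-fold, PARP14 3.98-fold, PARP12 3.29-fold, PARP10 2.95-fold and DTX3L 2.42-fold. In Molm13, 2 were DEGs, PARP10 at 3.52-fold and PARP9 at 2.33-fold, while PARP14 and DTX3L rose by less than the fold limit and PARP12 did not pass the test. In bulk RNA, more cells with a transcript and more of it per cell cannot be told apart. None of the 3 DNA repair genes was a DEG in THP1, and in Molm13 PARP2 fell. A DEG had a Benjamini-Hochberg adjusted p (FDR) under 0.05 in edgeR's quasi-likelihood test, a fold change above 1.5 in either direction, and at least 1 library above 1 RPKM (CPM divided by the exon length in kilobases). By that rule 11.4% of all genes tested in Molm13 were DEGs that rose and 11.3% DEGs that fell, and in THP1 3.83% rose and 2.39% fell.

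By FDR alone, 6 members rose, 2 fell and 2 did not pass in Molm13, where 33.4% of all genes rose and 33.5% fell. In THP1 6 rose, 1 fell and 3 did not pass, against 19% and 18.6% of all genes. The shPRMT9 and shCtrl libraries did not overlap for 9 members in Molm13 and 8 in THP1; with 2 libraries against 2, the same held for 81.9% and 66% of all genes. The median log2 fold change of the 6 interferon-linked members was 0.40 in Molm13 and 1.64 in THP1, that of the 3 DNA repair genes −0.17 and −0.02, and that of all tested genes was near 0 in both lines. In Molm13 the rise was not particular to the interferon-linked members. There the 8 other PARP genes listed below had a median of 0.52, and PARP8 was at 0.50. In THP1 the median of those 8 genes was 0.08. PARP9 and PARP10 also belong to a gene signature that the study drew from these same libraries, so their rise is not independent of it.

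**Figure D2:**
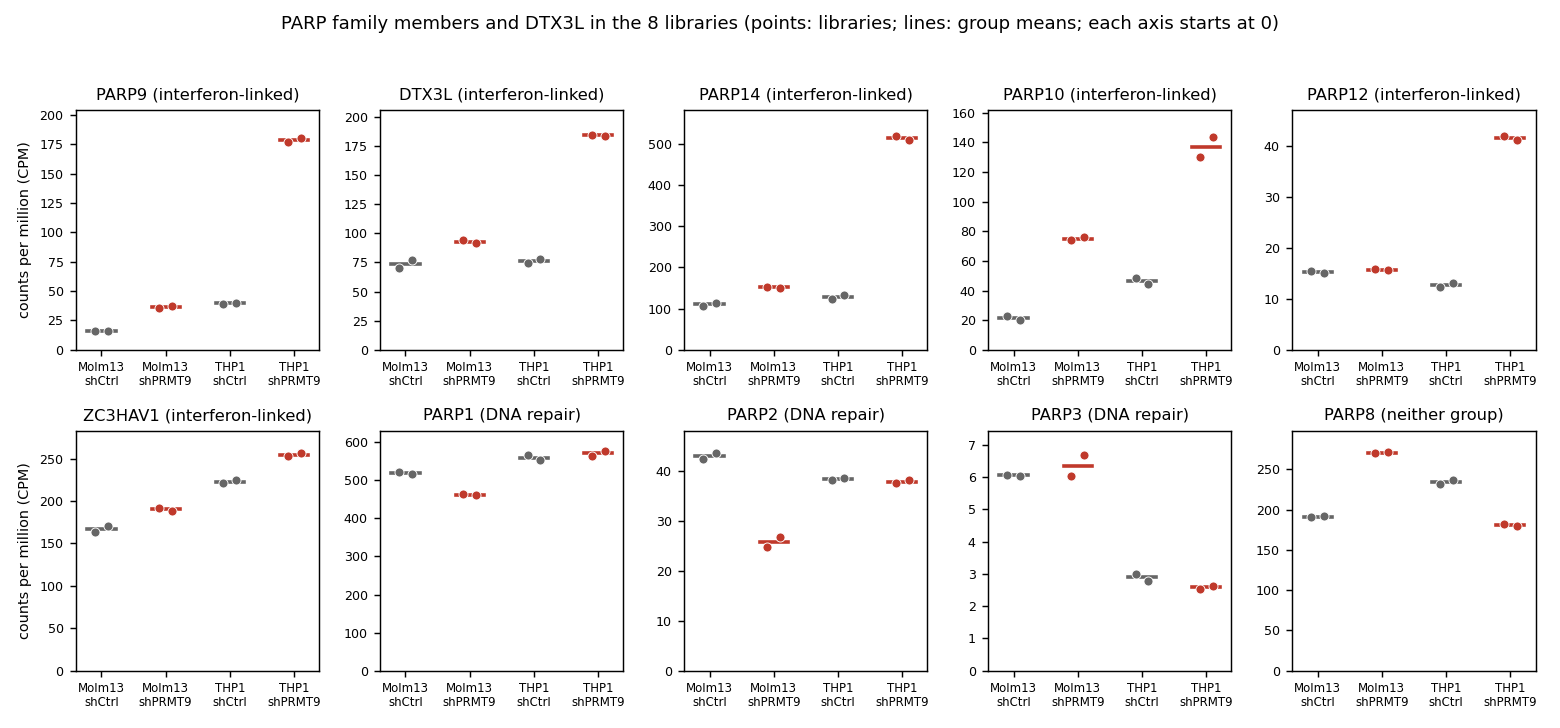
Level of each member in the 8 libraries, in CPM on linear axes from 0; points are libraries, lines group means, gray shCtrl and red shPRMT9. The THP1 shPRMT9 libraries hold the highest values of PARP9, DTX3L, PARP14, PARP10, PARP12 and ZC3HAV1, and for PARP12 the Molm13 groups lie together at 15.1 to 15.8 CPM.

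PARP9, the partner of DTX3L, stood at 15.7 and 15.6 CPM in Molm13 shCtrl and at 35.8 and 37.1 with shPRMT9. In THP1 it went from 39.3 and 40.1 to 177 and 181 CPM. The THP1 control libraries thus already lay above both Molm13 shPRMT9 libraries, and the highest values of all were those of THP1 shPRMT9. The log2 fold change was 1.22 (SE 0.07, edgeR FDR 1.4e-19, n = 2 per group) in Molm13 and 2.17 (SE 0.04, FDR 8.3e-25) in THP1, where 116 of 16294 tested genes had a higher one.

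DTX3L, the E3 ubiquitin ligase of the complex, was read at 70.5 and 77.1 CPM in Molm13 shCtrl, 94.0 and 91.9 in Molm13 shPRMT9, 74.7 and 77.6 in THP1 shCtrl and 185 and 184 in THP1 shPRMT9. The difference of its control levels between the lines did not pass the test: THP1 minus Molm13 was 0.05 on the log2 scale (95% confidence interval −0.04 to 0.14, FDR 0.29). The log2 fold change with shPRMT9 was 0.33 (SE 0.04, FDR 6.3e-09) in Molm13, a 1.26-fold rise, and 1.27 (SE 0.04, FDR 2e-20) in THP1.

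The head-to-head pair did not rise in proportion. Per length of exon, PARP9 RNA was 0.146 and 0.133 of DTX3L RNA in the Molm13 shCtrl libraries and 0.250 and 0.265 with shPRMT9, and 0.345 and 0.339 in THP1 shCtrl against 0.628 and 0.645 with shPRMT9. The ratio was higher with shPRMT9 in both lines, and higher in THP1 than in Molm13 on each hairpin. The annotated exons of the pair share 217 bases on opposite strands, of 8938 for PARP9 and 5868 for DTX3L; whether the counting used strand is not given in the sources used here.

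PARP14, a large mono-ADP-ribosyltransferase with macrodomains, was at 107 and 113 CPM in Molm13 shCtrl and at 153 and 150 with shPRMT9. In THP1 it rose from 124 and 133 to 518 and 509 CPM, which set the THP1 shPRMT9 libraries far apart from the other 6. In log2 terms it rose by 0.46 (SE 0.04, FDR 1.7e-15) in Molm13, below the fold limit for a DEG, and 1.99 (SE 0.04, FDR 6e-26) in THP1. Within the summed RPKM of the 6 interferon-linked members, PARP14 made up 17.97% and 18.9% in THP1 shCtrl and 30.9% and 29.995% in THP1 shPRMT9. In Molm13 the share was 20.4% and 20.6% in shCtrl and 20.1% and 19.8% with shPRMT9.

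PARP15, which lies between DTX3L and PARP14 and is not among the 10 members, rose by 0.66 in Molm13 (SE 0.07, FDR 3.7e-11) and by 0.43 in THP1 (SE 0.09, FDR 0.00052) on the log2 scale. EIF4BP8 did not pass in Molm13 (0.21, FDR 0.36) and was not tested in THP1. EIF4BP8 was looked at because of where it lies, after the values of its neighbors were known. PARP15 also belongs to the list of other PARP genes given below.

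PARP10 (ENSG00000178685, chr8:143977153-144012772, minus strand), a mono-ADP-ribosyltransferase, was the member with the largest change in Molm13. It stood at 22.6 and 20.04 CPM in Molm13 shCtrl and at 74.0 and 76.0 with shPRMT9, and at 48.2 and 44.5 in THP1 shCtrl against 130 and 144 with shPRMT9. As for PARP9, the Molm13 control libraries were the lowest and the THP1 shPRMT9 libraries the highest, but here Molm13 shPRMT9 passed the THP1 controls. The log2 fold change was 1.81 (SE 0.06, FDR 7.5e-29) in Molm13, where 430 of 16446 genes had a higher one, and 1.56 (SE 0.05, FDR 8.7e-20) in THP1.

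PARP10 overlaps GRINA on the opposite strand, with 324 shared exon bases of the 6033 annotated for PARP10. GRINA had 1441 and 1477 counts in Molm13 shCtrl and 2635 and 2992 with shPRMT9, and 2361 and 2578 against 3332 and 3356 in THP1, so it also rose, by 0.95 and 0.53 on the log2 scale (FDR 8.9e-25 and 9.2e-12). Without a stated strand setting, reads from the shared bases cannot be told apart, and their part in the PARP10 counts was not tested.

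PARP12, a zinc finger mono-ADP-ribosyltransferase, had the largest difference between the lines of the 10 members. It stood at 15.4 and 15.1 CPM in Molm13 shCtrl and at 15.8 and 15.6 with shPRMT9, while in THP1 it went from 12.2 and 13.0 to 42.0 and 41.02. The Molm13 groups were 1.03-fold apart, a log2 fold change of 0.04 with a 95% interval of −0.13 to 0.21 (FDR 0.7). In THP1 the log2 fold change was 1.72 (SE 0.07, FDR 1.9e-17), and 205 genes had a higher one.

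ZC3HAV1, the antiviral RNA-binding protein, changed least among the interferon-linked members that passed in both lines. Its levels were 164 and 171 CPM in Molm13 shCtrl, 192 and 189 in Molm13 shPRMT9, 221 and 225 in THP1 shCtrl and 253 and 257 in THP1 shPRMT9. The rise was 1.14-fold in each line, with log2 fold changes of 0.18 (SE 0.03, FDR 2e-06) and 0.19 (SE 0.03, FDR 2.7e-05). The effects in the lines differed by 0.02 (95% interval −0.07 to 0.11, FDR 0.78), a value whose sign changed under other scalings.

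**Figure D3:**
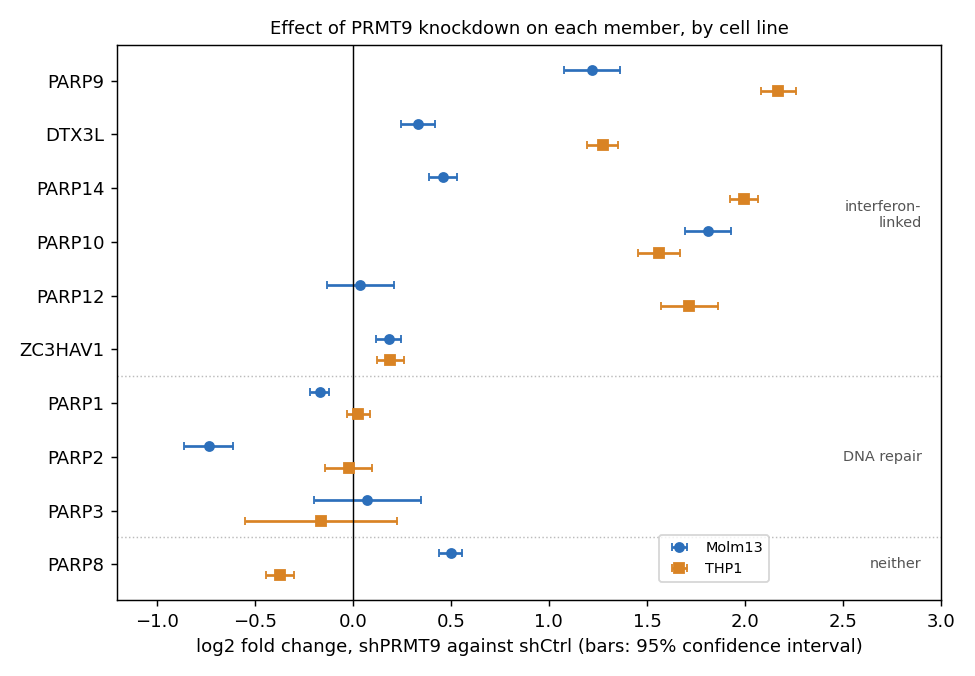
Log2 fold change of shPRMT9 against shCtrl for each member, Molm13 as blue circles and THP1 as orange squares, with bars for the 95% confidence interval. Intervals of PARP9, DTX3L, PARP14 and PARP12 lie to the right in THP1, those of ZC3HAV1 overlap, and PARP8 has opposite signs, 0.50 in Molm13 and −0.37 in THP1.

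Of the DNA repair genes, PARP1 and PARP2 fell in Molm13, and none passed the test in THP1. PARP1 (chr1:226360691-226408079), the main sensor of DNA strand breaks, was the most abundant member at 523 and 516 CPM in Molm13 shCtrl and 465 and 460 with shPRMT9. In THP1 it was at 566 and 554 in shCtrl and 565 and 577 with shPRMT9, and the groups overlapped. Its fold change was −0.17 on the log2 scale (SE 0.02, FDR 6.8e-08) in Molm13 and 0.03 (95% interval −0.03 to 0.09, FDR 0.49) in THP1.

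PARP1 has processed pseudogenes that share its sequence, and their counts differed sharply between the tables. PARP1P1 had 554 to 660 counts in the Molm13 libraries and 0 to 2 in the THP1 libraries, and PARP1P2 had 57 to 85 and 0 to 1. Neither passed the test in Molm13 (FDR 0.082 and 0.12). Reads that match both PARP1 and a copy cannot be assigned with certainty, and the PARP1 levels are uncertain to that extent.

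PARP2 (chr14:20343582-20357905), which acts beside PARP1 at breaks, was at 42.4 and 43.6 CPM in Molm13 shCtrl and at 24.9 and 26.7 with shPRMT9. In THP1 its 4 libraries lay between 37.6 and 38.7 CPM. On the log2 scale the change was −0.73 (SE 0.06, FDR 3.4e-14) in Molm13, the only DEG that fell among the members, and −0.02 (95% interval −0.14 to 0.10, FDR 0.82) in THP1.

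PARP3 (chr3:51942345-51948867), another break-responsive enzyme, was the least abundant member by CPM. It stood at 6.07 and 6.03 CPM in Molm13 shCtrl, 6.04 and 6.67 in Molm13 shPRMT9, 3.01 and 2.77 in THP1 shCtrl, and 2.54 and 2.62 in THP1 shPRMT9. With 64 to 142 counts per library the intervals were wide, −0.20 to 0.35 in Molm13 and −0.55 to 0.23 in THP1 on the log2 scale (FDR 0.64 and 0.55).

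PARP8 (chr5:50665899-50846522), a less studied mono-ADP-ribosyltransferase, was the member that changed in opposite directions. It rose in Molm13 from 191 and 192 CPM to 270 and 271, and fell in THP1 from 232 and 237 to 182 and 180. The groups did not overlap in either line. Log2 fold changes were 0.50 (SE 0.03, FDR 8.2e-20) in Molm13 and −0.37 (SE 0.03, FDR 7e-10) in THP1, neither past the fold limit for a DEG.

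The difference of the effects between the lines was tested directly, in a fit of all 8 libraries with an interaction term. It passed for 8 of the 10 members at an FDR under 0.05, as it did for 42.2% of all 19288 genes tested. The effect was higher in THP1 for PARP12 (by 1.69, FDR 2.5e-23), PARP14 (1.55, FDR 1.8e-46), PARP9 (0.96, FDR 3.1e-17), DTX3L (0.95, FDR 2e-26), PARP2 (0.73, FDR 1.4e-11) and PARP1 (0.21, FDR 1.6e-06). It was lower in THP1 for PARP8 and PARP10, and did not pass for ZC3HAV1 and PARP3. The PARP10 difference was small, −0.24 (SE 0.08, FDR 0.01); it no longer passed with limma-voom (FDR 0.071) or without Molm13 shCtrl replicate 2 (FDR 0.1). The lines came as separate tables, so line and library handling cannot be told apart.

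The members also differed between the lines before any knockdown. With shCtrl, the THP1 level differed from the Molm13 level for 9 of the 10 members, as for 82.8% of all genes, with DTX3L the exception. PARP9 was higher in THP1 by 1.35 on the log2 scale (SE 0.07, FDR 2.5e-34) and PARP10 by 1.12 (SE 0.06, FDR 9.9e-30), while PARP3 was lower by 1.06 (log2 difference −1.06, SE 0.16, FDR 4.7e-09). The other 6 that passed differed by less than 1.5-fold: ZC3HAV1, PARP8, PARP14 and PARP1 were higher in THP1, by 0.42, 0.30, 0.23 and 0.11, and PARP12 and PARP2 were lower (−0.27 and −0.16). The small PARP1 difference is subject to the uncertainty given above, since its pseudogenes held reads in Molm13 and almost none in THP1.

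Per length of exon, the order of the members shifted with PRMT9 KD. In Molm13 shCtrl it ran PARP1 (mean 72.5 RPKM), ZC3HAV1 (20.3), PARP8 (19.0), DTX3L (12.6), PARP2 (10.5), PARP14 (10.5), PARP10 (3.53), PARP12 (2.43), PARP3 (2.07) and PARP9 (1.75), and of these neighbors PARP2 and PARP14 overlapped in their 2 libraries. With shPRMT9 in Molm13, PARP8 (26.9) stood above ZC3HAV1 (23.1), and PARP10 (12.4) above PARP2 (6.30). In THP1 shCtrl the order was PARP1 (78.1), ZC3HAV1 (27.1), PARP8 (23.3), DTX3L (13.0), PARP14 (12.3), PARP2 (9.39), PARP10 (7.69), PARP9 (4.44), PARP12 (2.01) and PARP3 (0.987). In THP1 shPRMT9 PARP14 came directly after PARP1, at 48.9 against 79.7 RPKM, followed by DTX3L (31.4), ZC3HAV1, PARP10 (22.7), PARP9 (20.002), PARP8 (18.04), PARP2 (9.26), PARP12 (6.60) and PARP3 (0.881).

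The balance between the groups moved the same way in both lines. The summed RPKM of the 6 interferon-linked members was 0.587 and 0.616 of that of the 3 DNA repair genes in Molm13 shCtrl, and 0.997 and 0.988 with shPRMT9. In THP1 it was 0.737 and 0.766 in shCtrl and 1.79 and 1.78 with shPRMT9. In Molm13 both sums moved, the interferon-linked one from 50.1 and 52.1 to 72.7 and 72.1 RPKM and the repair one from 85.4 and 84.7 to 72.9 and 73.0. In THP1 the repair sum lay between 87.7 and 90.7 RPKM in all 4 libraries. Most of the repair sum was PARP1, with means of 72.5 RPKM in Molm13 shCtrl and 78.1 in THP1 shCtrl. PARP2 stood at 10.5 and 9.39 there, and PARP3 at 2.07 and 0.987. The ratio is thus largely one to PARP1, with the uncertainty given above for its levels. PARP14 alone went from 0.150 and 0.165 of the PARP1 level to 0.626 and 0.602 in THP1, and from 0.140 and 0.149 to 0.226 and 0.223 in Molm13.

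**Figure D4:**
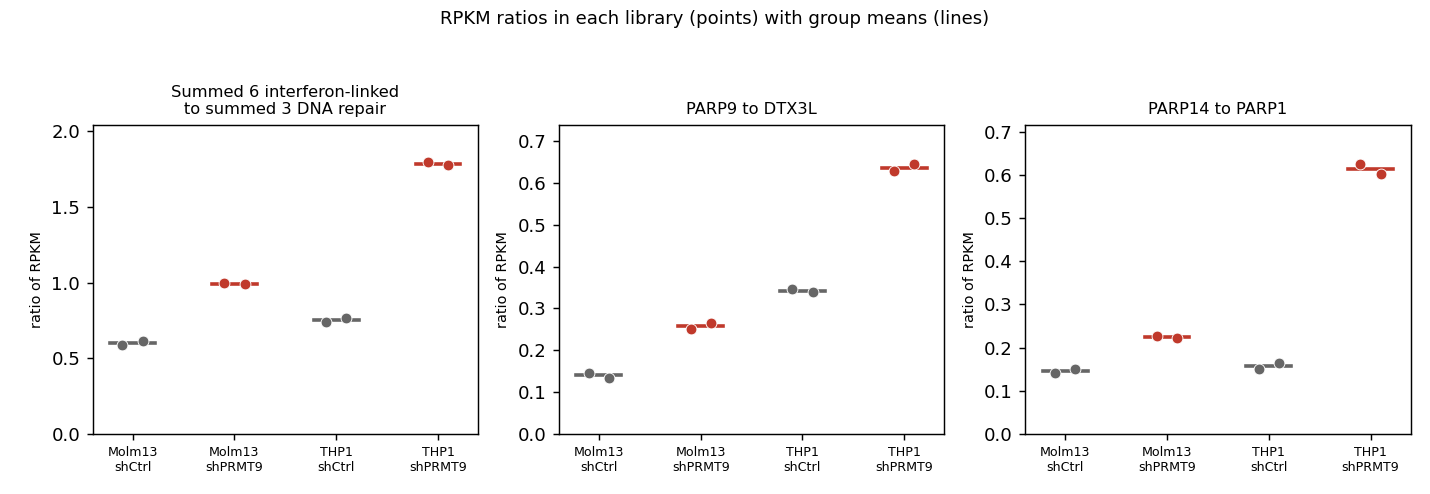
Ratios of RPKM in each library (points) with group means (lines), gray shCtrl and red shPRMT9, on linear axes from 0: summed interferon-linked to summed DNA repair members, PARP9 to DTX3L, and PARP14 to PARP1. In each panel both shPRMT9 libraries of a line lie above both of its shCtrl libraries, with the first ratio reaching 1.79 and 1.78 in THP1.

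A further 38 genes that add or remove ADP-ribose, supply NAD or work beside the members were looked at as lists. In Molm13 34 were tested and 3 were DEGs, all higher: QPRT, an enzyme of NAD synthesis (log2 fold change 1.53), PARP16 (0.72) and PARP15 (0.66). In THP1 36 were tested and 4 were DEGs, all higher: DTX4, a relative of DTX3L (1.47), NAMPT, the enzyme of the NAD salvage route (0.78), ADPRH, which removes ADP-ribose from arginine (0.70), and TRIM25, a cofactor of ZC3HAV1 (0.61). The shares of all genes that were DEGs and higher were 11.4% in Molm13 and 3.83% in THP1, so in Molm13 the list count was no higher than among all genes. By FDR alone 22 rose and 6 fell in Molm13, where 33.4% of all genes rose and 33.5% fell, and 13 rose and 6 fell in THP1, against 19% and 18.6%.

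The other PARP genes, PARP4, PARP6, PARP11, PARP15, PARP16, TIPARP, TNKS and TNKS2, form a list of 8. Of these, 7 rose by FDR in Molm13, against 33.4% of all genes, with TIPARP at 0.01 and not past the test, and the median log2 fold change was 0.52. In THP1, where 19% of all genes rose and 18.6% fell, 4 rose and PARP16 fell (−0.40, FDR 0.0084), with a median of 0.08. The difference between the lines passed for 4 of the 8, as it did for 42.2% of all genes tested. Each of the 4 was lower in THP1, among them PARP16 (−1.10, SE 0.18, FDR 1.8e-07).

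Of 7 partners of PARP1 in repair (HPF1, XRCC1, LIG3, POLB, APTX, APLF and CHD1L), none was a DEG in either line. By FDR 1 rose and 3 fell in Molm13, where 33.4% of all genes rose and 33.5% fell. In THP1 1 rose and 2 fell, against 19% and 18.6% of all genes. With 7 genes, such counts are too few to set apart from these shares. LIG3, the ligase that seals single-strand breaks, fell in Molm13 (−0.54, SE 0.04, FDR 2.6e-15) and rose in THP1 (0.23, SE 0.05, FDR 0.00023). Of 7 genes that remove ADP-ribose, 6 were tested in Molm13, where 3 rose and 2 fell by FDR (median log2 fold change 0.07), and 7 in THP1, where 2 rose and 1 fell. Among them PARG, which breaks down the chains, fell in Molm13 (−0.47, SE 0.06, FDR 7.9e-09) and stood at 0.00 in THP1 (SE 0.07). CHD1L, a remodeler recruited by ADP-ribose chains, rose by 0.47 in Molm13 and fell in THP1 (−0.13, FDR 4.3e-18 and 0.016).

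All 4 genes listed as partners of ZC3HAV1 (TRIM25, KHNYN, N4BP1 and ZC3HAV1L) rose by FDR in Molm13, where 33.4% of all genes did and none of the 4 was a DEG. In THP1 2 rose, TRIM25 and N4BP1, against 19% of all genes. QPRT was the widest split between the lines in these lists: it stood at 33.3 and 32.1 CPM in Molm13 shCtrl and 91.4 and 97.7 with shPRMT9, and at 96.2 and 89.2 in THP1 shCtrl against 74.2 and 79.2 with shPRMT9. Its difference between the lines was −1.79 (SE 0.07, FDR 3.1e-40).

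Transducers of the interferon signal also differed between the lines. STAT2 stood at 56.4 and 55.4 CPM in Molm13 shCtrl and 179 and 173 with shPRMT9, and at 77.1 and 76.0 in THP1 shCtrl against 179 and 188 with shPRMT9. STAT2 and IRF9 rose more in Molm13, by 1.65 and 1.91, than in THP1, by 1.26 and 0.67; the differences were −0.38 (FDR 1.5e-08) and −1.22 (FDR 1.7e-06). IRF9 had few counts in Molm13 shCtrl, 37 and 35, or 1.81 and 1.79 CPM. It stood at 6.63 and 6.91 CPM with shPRMT9 in Molm13. In THP1 IRF9 was at 6.21 and 6.37 CPM in shCtrl and 9.34 and 10.7 with shPRMT9. On each hairpin its level was thus higher in THP1, but Molm13 shPRMT9 passed the THP1 controls. IRF1 rose in THP1 (0.45, FDR 1.4e-06) and stood at −0.07 in Molm13 (FDR 0.25).

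**Figure D5:**
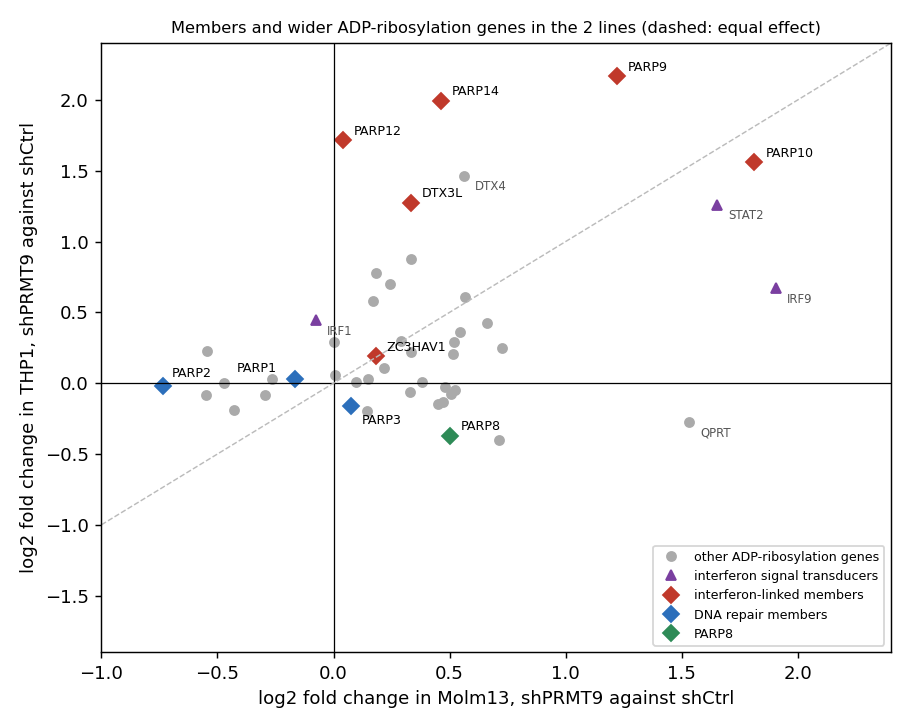
Log2 fold change in Molm13 (horizontal) against THP1 (vertical) for the members (diamonds), 3 interferon signal transducers (triangles) and the other ADP-ribosylation genes tested in both lines (gray circles); the dashed line marks equal effects. PARP9, PARP14, PARP12 and DTX3L lie above the dashed line, PARP10, STAT2, IRF9 and QPRT below it, and the DNA repair members near or left of the vertical zero line.

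The genes whose pattern over the 8 libraries was most like that of PARP9, by Pearson's r of log2(CPM + 0.5) over 13475 genes, were S100A11 (0.998), BST2 (0.997), SAMHD1 (0.996), PSMB8-AS1 (0.996) and EIF2AK2 (0.996). BST2, SAMHD1 and EIF2AK2 are known as antiviral genes. The 8 points share 4 groups and 2 tables, so r is a description of which libraries were high. PARP14 came 136th in this order (0.957), DTX3L 212th (0.937), ZC3HAV1 255th (0.928), PARP10 275th (0.926) and PARP12 675th (0.863), while PARP1 came 4256th (0.513), PARP2 7224th (−0.06) and PARP3 12031st (−0.75).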

How the data were processed

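Bulk polyA RNA-seq gene counts were taken for both hairpins (shCtrl, shPRMT9) in each line, with 2 libraries per group. The authors deposited raw counts per gene, 1 table per line, with exon lengths in the Molm13 table. Per the labels, TopHat2 2.0.8, HTSeq 0.11.2 and edgeR 3.30.3 were used with build hg38; the annotation release and the strand setting of counting are not given in the sources used here. The tables held 57992 and 58174 genes.

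The members and gene lists were chosen with earlier results of these data known. Named genes were the 10 members, PRMT9, and, of each fixed list, those past a threshold or needed as examples. Some listed genes are not reported here. Groups were taken from the sample titles.

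Counts were analysed with edgeR 4.0.16 in R 4.3.3 (TMM, filterByExpr, glmQLFit, glmQLFTest, two-sided, Benjamini-Hochberg over all tested genes): 16446 genes in Molm13, 16294 in THP1 and, for the difference between the lines and the control levels, 19288 in a fit of all 8 libraries. Standard errors were derived from the F statistic (absolute effect over its square root), and intervals are 95%. RPKM for both lines used the exon lengths of the Molm13 table. The DEG rule follows the study's methods, with the upper fold limit read as above 1.5. CPM and RPKM were divided by TMM-scaled totals, with TMM factors from 0.989 to 1.02. The CPM of the cell type markers was the exception and used plain library totals. Scripts were tested on simulated data. DESeq2 1.42.0 and limma 3.58.1 (voom) were alternatives, as were other scalings, no filter on low counts, libraries thinned to the lowest total, other DEG limits, a replicate block and leaving out each library. Replicates differed by more than sampling noise (chi-square per gene 1.35 to 2.16).

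Promoter windows are from RefSeq (GRCh38.p14), and exon annotation from GENCODE 29 (GRCh38).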

Additional observations from a re-analysis of the deposited data

Results flagged for a closer look

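The interaction test of edgeR found unequal shPRMT9 effects in the lines for 8 of the 10 members (THP1 minus Molm13, log2 scale, FDR under 0.05). A higher effect in THP1 was seen for 4 interferon-linked members: PARP12 by 1.69 (FDR 2.5e-23), PARP14 by 1.55 (FDR 1.8e-46), PARP9 by 0.96 (FDR 3.1e-17) and DTX3L by 0.95 (FDR 2e-26). The DNA repair genes PARP2 and PARP1, which fell in Molm13 and did not pass in THP1, differed by 0.73 (FDR 1.4e-11) and 0.21 (FDR 1.6e-06). PARP8, which rose in Molm13 and fell in THP1, differed by −0.86 (FDR 2.9e-31). PARP10 differed by −0.24 (FDR 0.01), a difference that some alternatives lost. The same test passed for 42.2% of all genes, and line and library handling cannot be told apart.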

How the results depend on the processing

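The member counts held under the alternatives tried, except where named. In Molm13 3 members were DEGs under each of them but a fold limit of 2, which left 2, and 5 in THP1 under all; by FDR alone 8 and 7 passed in every fit. The difference between the lines passed for 7 or 8 members, with PARP10 lost under limma-voom (−0.24, FDR 0.071) and without Molm13 shCtrl replicate 2 (−0.20, FDR 0.1). The ZC3HAV1 difference, 0.02 and not past the threshold, changed sign with DESeq2 size factors (−0.00339), library size alone (−0.0230), the DESeq2 test (−0.00336) and thinned libraries (−0.00535), and ran from −0.0471 to 0.0218 as each library was left out. Of the 9 members with a different control level, 3 differed by more than 1.5-fold; 8 passed with DESeq2 and 7 without THP1 shCtrl replicate 1. Of 370 alternative values of single members, 359 kept their direction and side of the threshold, 2 fell short of it and 9 changed sign.

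Among all genes, 3744 DEGs in Molm13 and 1013 in THP1 became 1302 and 400 with a fold limit of 2, and 4800 and 1544 with no RPKM minimum. Replicate numbers were treated as names only, since the deviations of same-numbered libraries had a correlation of −0.09 in Molm13 and −0.01 in THP1; with the replicate block 3 and 5 members were DEGs, among 3711 and 1019 genes. The 2 libraries per group limit every test, and PARP3 had the lowest counts and the widest intervals of the members.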
